A study of Homo sapiens with 12 samples.

Results

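The SR splicing factor transcripts are the messages of 10 genes, SRSF1, SRSF2, SRSF3, SRSF4, SRSF5, SRSF6, SRSF7, SRSF9, SRSF10 and SRSF11. They were chosen by gene symbol, as members of a family known for poison exons and autoregulation, and not by any measured value. Earlier results of these data were known when they were chosen. All 10 symbols are among the 26334 in the count table, and all 10 passed the filter of a mean of at least 10 counts, which left 12032 genes to test. A673 cells, an established human Ewing sarcoma line (shA673-1c in the labels), received 5 µM actinomycin D, which blocks transcription, for 0, 1, 2 or 4 h. Each time point has 3 replicates, giving 12 poly(A) RNA-Seq libraries. All groups share the same cells and a medium with blasticidin and zeocyn (so spelled in the labels), the sample titles carry the mark CTL, and the labels name no inducer and no untreated series followed over the same hours. The comparison asks which transcripts lost ground against the rest of the poly(A) RNA while no new RNA was made. A transcript that decays at the same pace as the typical message keeps a constant level on this scale, and a rise means only a slower loss than that of the typical message or more RNA, which cannot be told apart. In these bulk samples fewer cells and less RNA per cell cannot be told apart either.

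SR proteins carry 1 or more RNA recognition motifs (RRM) and a tail rich in arginine and serine. They bind exonic enhancers and help to recruit the U1 snRNP and U2AF to splice sites, and kinases of the SRPK and CLK families phosphorylate the tail. Many SR genes hold a poison exon, an alternative exon with an early stop codon. When a cell has much of an SR protein, that exon tends to be included, and the message is then removed by nonsense-mediated decay (NMD), a loop known as autoregulation. The deposited counts are summed over each gene, so isoforms with and without a poison exon cannot be told apart in them.

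The stop codons inside annotated poison exons are shown because these exons are what the family is known for. GENCODE version 44 on GRCh38 lists at least 1 NMD transcript for all 10 genes, against 48.6% of the 10823 tested genes with a protein-coding canonical transcript. A poison exon was defined here as an internal exon of an NMD transcript that lies inside an intron of the canonical transcript and holds the stop codon. By that definition 6 of the 10 genes have one, against 22.0% of the same 10823 genes. The genes were chosen as a family known for poison exons, so both counts describe the choice and are not a result. SRSF1, SRSF2, SRSF5 and SRSF10 have none by this definition, which says nothing of poison exons of another shape. For each of the 6 genes the stop codon of the longest such exon is in capitals, with up to 12 bases of the exon on either side, 5′ to 3′ in the direction of the gene.
SRSF3: ctcaccaccctcTGAatctgcattagc
SRSF4: ttacaaggaaaaTGAgtgaatgtggga
SRSF6: gccttttgccatTAGacgcagggtgat
SRSF7: agtcagtcgcctTGAttcagaatgtca
SRSF9: aaaactatTAGgaaatggctgca
SRSF11: gcttttgaaagtTGAgagcacacccct

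These exons differ in length and place. The SRSF3 exon spans 456 bases at chr6:36599821-36600276 on the + strand, and the SRSF7 exon spans 449 bases at chr2:38748898-38749346 on the - strand. The SRSF6 exon has 268 bases (chr20:43459153-43459420, + strand) and the SRSF4 exon 175 bases (chr1:29165890-29166064, - strand). The SRSF11 exon has 117 bases (chr1:70231859-70231975, + strand) and the SRSF9 exon 90 bases (chr12:120464733-120464822, - strand). TGA is the stop codon in 4 of the 6 exons and TAG in SRSF6 and SRSF9. Of the 6 genes with such an exon, SRSF4 and SRSF6 fell over the time course, SRSF9 and SRSF11 rose, and SRSF3 and SRSF7 did not pass the test, as described next.

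Across the 4 h, SRSF4, SRSF5 and SRSF6 fell against the other transcripts and SRSF9 and SRSF11 rose, while SRSF1, SRSF2, SRSF3, SRSF7 and SRSF10 did not pass the threshold. The slope is the log2 change per hour from edgeR's quasi-likelihood test on TMM-scaled counts, and a gene was called at a Benjamini-Hochberg adjusted p below 0.05 over all 12032 genes. Of the 10 members 3 were called lower, against 32.1% of all tested genes, and 2 were called higher, against 30.7%. In this fit the family moved in both directions at shares close to those of all genes, and the shares differed with other fits. The median slope of the members was -0.021 log2 per hour, beside 0.0093 for all tested genes, whose quartiles were -0.13 and 0.089. The summed level of the 10 transcripts was 2901 ± 92.1 CPM (counts scaled to a common library size by TMM, the unit CPM; SD, n = 3) at 0 h and 2722 ± 68.4 CPM at 4 h. With the same replicate number taken as a block, 5 members were called lower (SRSF1 and SRSF3 in addition, against 34.8% of all genes) and 2 higher (36.2%).

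The direction of the rising members depends on the scaling. When the libraries were scaled to GAPDH plus ACTB, the median slope of all genes moved by -0.138 log2 per hour, all 10 members were called lower (64.2% of all genes were) and 0 higher (0.931%), and SRSF2, SRSF9, SRSF10 and SRSF11 changed sign. GAPDH and ACTB themselves rose on the TMM scale by 0.15 and 0.12 log2 per hour. Scaled to library totals, 5 members were called lower (SRSF1, SRSF3, SRSF4, SRSF5 and SRSF6) (39.1% of all genes) and 1 higher (SRSF9; 18.7%), with a shift of -0.039. Between 0 h and 4 h alone, library totals gave 5 members lower (38.4% of all genes) and 0 higher (17.6%), and GAPDH plus ACTB 10 lower (63.3%) and 0 higher (0.923%). From 1 h to 2 h, library totals called SRSF4 lower (15.7% of all genes) and GAPDH plus ACTB called SRSF2 and SRSF4 lower (17.3%). From 2 h to 4 h, GAPDH plus ACTB called 5 members lower (40.4%) and 0 higher (0.0748%). In the same step library totals called SRSF4, SRSF5 and SRSF6 lower (2777 of 12032 genes) and 0 higher (4.79%). Relative to the median of all genes the TMM slopes were -0.19 for SRSF5, -0.17 for SRSF4, -0.064 for SRSF3, -0.062 for SRSF6, 0.059 for SRSF11 and 0.059 for SRSF9.

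**Figure D1:**
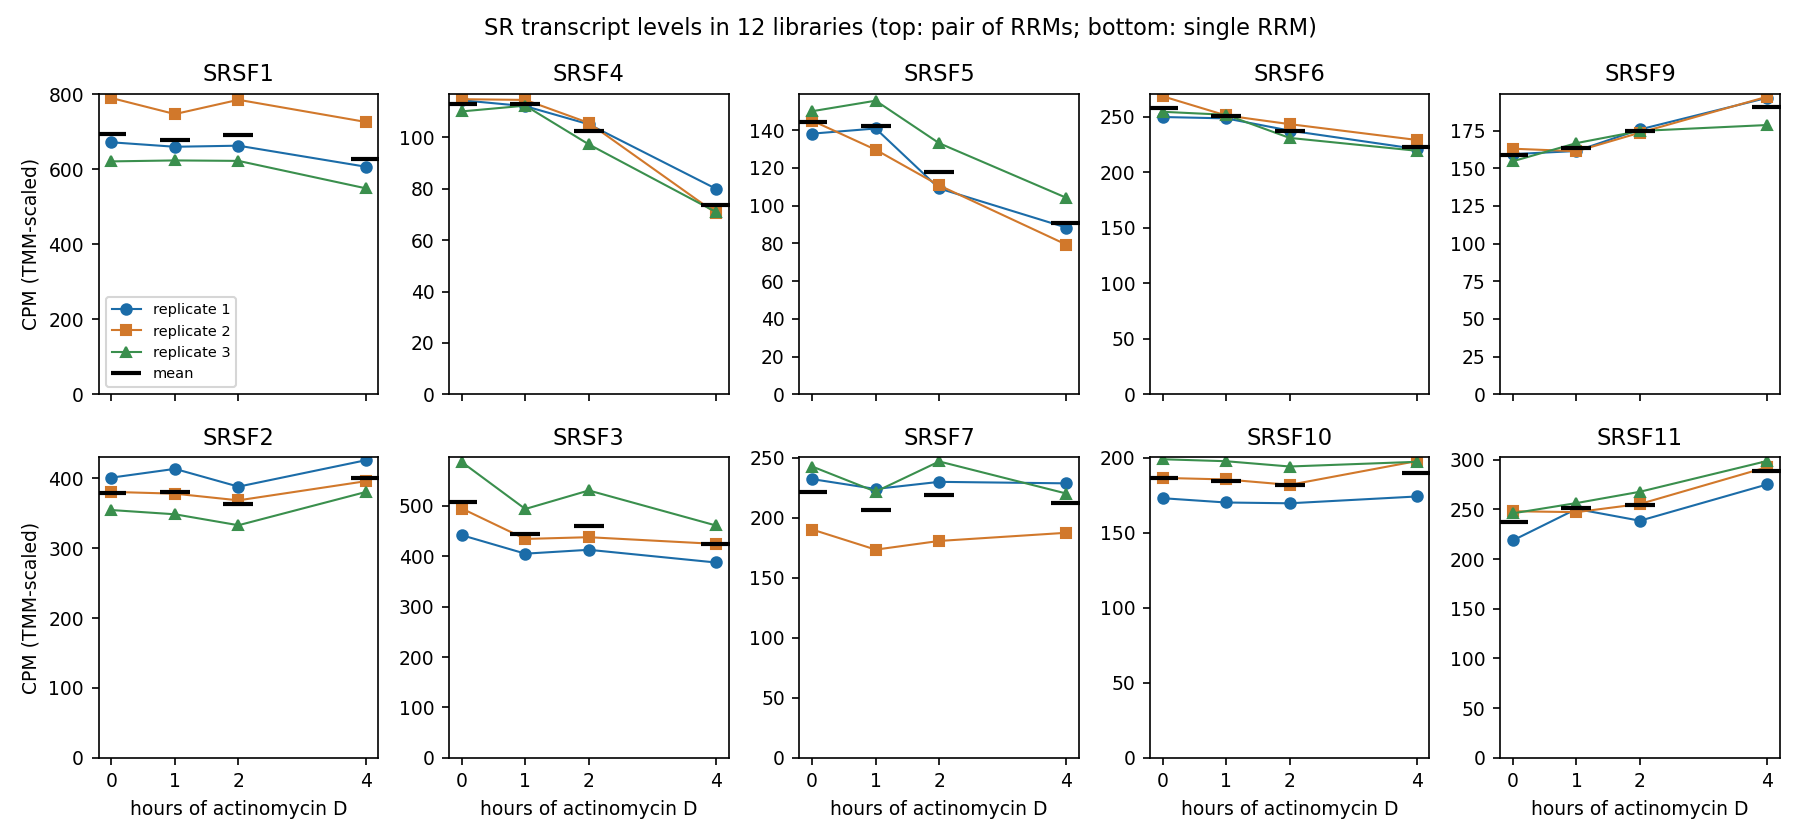
TMM-scaled CPM (y, from 0) against hours of actinomycin D (x) for each SR transcript, with 1 line per replicate and a black bar at the mean of 3 libraries. SRSF4 and SRSF5 end at 70.5 to 80.0 and 79.4 to 104 CPM, below all their 0 h libraries. SRSF9 and SRSF11 end above theirs (the rise of both turns into a fall when scaled to GAPDH plus ACTB). The lines of SRSF1 and SRSF3 stay apart by replicate, and for SRSF7 replicate 2 stays below the others, whose lines cross.

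SRSF5, an SR protein with a pair of RRMs, lies at chr14:69726900-69772005 on the + strand and had the lowest slope of the family. Its levels in replicates 1, 2 and 3 were 138, 145 and 150 CPM at 0 h, 141, 130 and 156 CPM at 1 h, 109, 111 and 133 CPM at 2 h and 88.4, 79.4 and 104 CPM at 4 h. The 4 h libraries lay below all 0 h libraries, and replicate 3 was the highest at every time. The slope was -0.18 ± 0.025 log2 per hour (SE; edgeR adjusted p = 1.26e-05), a half-life of 5.57 h on the TMM scale (95% confidence interval 4.28 to 7.96 h). At 4 h the mean level was 62.8% of that at 0 h, a log2 change of -0.67 ± 0.10 (SE; edgeR adjusted p = 6.14e-05). Of all tested genes 20.1% had a lower slope. Scaled to GAPDH plus ACTB, the slope was -0.32. The half-life thus holds only on the TMM scale, and its interval leaves out the choice of scaling.

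SRSF4, also with a pair of RRMs and a long serine-arginine tail, lies at chr1:29147743-29181900 on the - strand. It held 114, 115 and 110 CPM at 0 h, 112, 115 and 112 CPM at 1 h, 105, 106 and 97.3 CPM at 2 h and 80.0, 70.5 and 71.0 CPM at 4 h. The 0 h and 1 h libraries were mixed, and all 4 h libraries lay below all others. The slope was -0.16 ± 0.020 log2 per hour (SE; edgeR adjusted p = 3.45e-06), a half-life of 6.20 h on the TMM scale (4.89 to 8.45 h). The change was not even over time, with a mean of 113 CPM at both 0 h and 1 h, and with 0, 1 and 2 h alone the slope was -0.059 (edgeR adjusted p = 0.182). The test of a departure from a straight line gave an adjusted p of 0.156 by edgeR, and 0.00313 with the replicate block, so the half-life describes the average of an uneven course. Scaled to GAPDH plus ACTB, the slope was -0.30, so this half-life too depends on the scaling.

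SRSF6, with a pair of RRMs, lies at chr20:43457893-43466046 on the + strand and fell less. Its libraries held 250, 269 and 255 CPM at 0 h, 249, 251 and 252 CPM at 1 h, 238, 243 and 231 CPM at 2 h and 221, 229 and 219 CPM at 4 h. Every 4 h library lay below every 0 h library, with little spread between replicates. The slope was -0.053 ± 0.012 log2 per hour (SE; edgeR adjusted p = 0.000763), and the half-life on the TMM scale was 18.8 h (12.9 to 34.9 h), which is longer than the 4 h observed. Scaled to GAPDH plus ACTB, the slope was -0.19, and scaled to library totals -0.092. The half-life depends on the scaling, which its interval leaves out.

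SRSF9, a small member with a pair of RRMs, lies at chr12:120461672-120495946 on the - strand. Its levels were 159, 163 and 155 CPM at 0 h, 161, 161 and 167 CPM at 1 h, 176, 174 and 175 CPM at 2 h and 197, 197 and 179 CPM at 4 h. All 2 h and 4 h libraries lay above all 0 h libraries. The slope was 0.069 ± 0.012 log2 per hour (SE; edgeR adjusted p = 0.000145) and turned to -0.070 when scaled to GAPDH plus ACTB. The gene overlaps DYNLL1 and GATC on the other strand, and the sources used here do not give whether reads were counted by strand. DYNLL1 had a mean of 2791 counts, more than the 1735 of SRSF9, and a slope of 0.040 (edgeR adjusted p = 0.0153), and its part in the SRSF9 value was not tested. NRAV overlaps SRSF9 on the same strand, with a mean of 71.7 counts and a slope of -0.091 (edgeR adjusted p = 0.0530).

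SRSF11, with a single RRM, lies at chr1:70205682-70253052 on the + strand. It held 219, 248 and 246 CPM at 0 h, 250, 247 and 256 CPM at 1 h, 239, 255 and 268 CPM at 2 h and 275, 293 and 299 CPM at 4 h. The 4 h libraries lay above all others. The slope was 0.068 ± 0.015 log2 per hour (SE; edgeR adjusted p = 0.00068), with replicate slopes of 0.071, 0.063 and 0.070. It was -0.069 when scaled to GAPDH plus ACTB, and it lost its call when scaled to library totals (0.029, edgeR adjusted p = 0.136).

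The comparison of 4 h with 0 h called the same members as the slope, 3 lower (against 31.6% of all genes) and 2 higher (28.7%), and with the replicate block also SRSF1 and SRSF3 lower (36.0%) and SRSF2 higher (36.8%). The groups at 0 h and 4 h did not overlap for the 5 members called by slope. All 3 libraries at 4 h were below all 3 at 0 h for SRSF4, SRSF5 and SRSF6, as for 33.0% of all tested genes, and above them for SRSF9 and SRSF11, as for 30.4%. For the other 5 members the groups overlapped.

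SRSF1, the founding member of the family, has a pair of RRMs. It held 672, 790 and 621 CPM at 0 h, 660, 747 and 624 CPM at 1 h, 663, 785 and 622 CPM at 2 h and 607, 726 and 549 CPM at 4 h. Replicate 2 was the highest and replicate 3 the lowest at every time, and the difference between replicates exceeded that between times. The slope was -0.034 ± 0.027 log2 per hour (SE; edgeR adjusted p = 0.271). With the replicate block it was -0.035 with an edgeR adjusted p of 0.00244, and the slopes of replicates 1, 2 and 3 were -0.036, -0.025 and -0.046.

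SRSF3, the smallest SR protein, which acts in splicing and in mRNA export through NXF1, showed a like pattern. Its levels were 442, 495 and 587 CPM at 0 h, 405, 434 and 494 CPM at 1 h, 413, 438 and 531 CPM at 2 h and 388, 425 and 461 CPM at 4 h. Replicate 3 was the highest at every time, and within each replicate the 0 h library was the highest and the 4 h library the lowest. The slope was -0.055 ± 0.027 log2 per hour (SE; edgeR adjusted p = 0.0867), and with the replicate block -0.053 (edgeR adjusted p = 0.000877). It passed the threshold without replicate 3 (-0.048, edgeR adjusted p = 0.0322) and without the 2 h library of replicate 3 (-0.058, edgeR adjusted p = 0.0438). Between 0 h and 4 h the log2 change was -0.26 ± 0.11 (SE; edgeR adjusted p = 0.0645, and 4.18e-08 with the block).

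SRSF7, the close relative of SRSF3 and likewise an NXF1 adaptor, ran from 174 to 247 CPM over the 12 libraries. Replicate 2 was the lowest at every time. Its slope was -0.0085 ± 0.029 log2 per hour (SE; edgeR adjusted p = 0.816), and the replicates did not share a sign.

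SRSF2, with a single RRM, ran from 333 to 426 CPM, with a slope of 0.019 ± 0.019 log2 per hour (SE; edgeR adjusted p = 0.392), and -0.12 when scaled to GAPDH plus ACTB. Its level was 379 ± 23.2 CPM (SD, n = 3) at 0 h, 363 ± 28.0 CPM at 2 h and 401 ± 23.1 CPM at 4 h. It was lowest at 2 h and highest at 4 h within each replicate. With the replicate block the change from 0 h to 4 h (0.08 on the log2 scale) had an edgeR adjusted p of 0.0203, and the departure from a straight line one of 0.0209. SRSF8, a close copy of SRSF2 with a mean of 300 counts, and MFSD11 on the other strand, with a mean of 237 counts beside 3844 for SRSF2, could share reads with it.

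SRSF10, a splicing repressor when dephosphorylated, moved least of the 10 from the typical gene. It ran from 170 to 199 CPM, with a slope of 0.0072 ± 0.018 log2 per hour (SE; edgeR adjusted p = 0.742), and -0.13 when scaled to GAPDH plus ACTB. Its levels were 186 ± 13.0 CPM (SD, n = 3) at 0 h and 190 ± 13.5 CPM at 4 h.

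**Figure D2:**
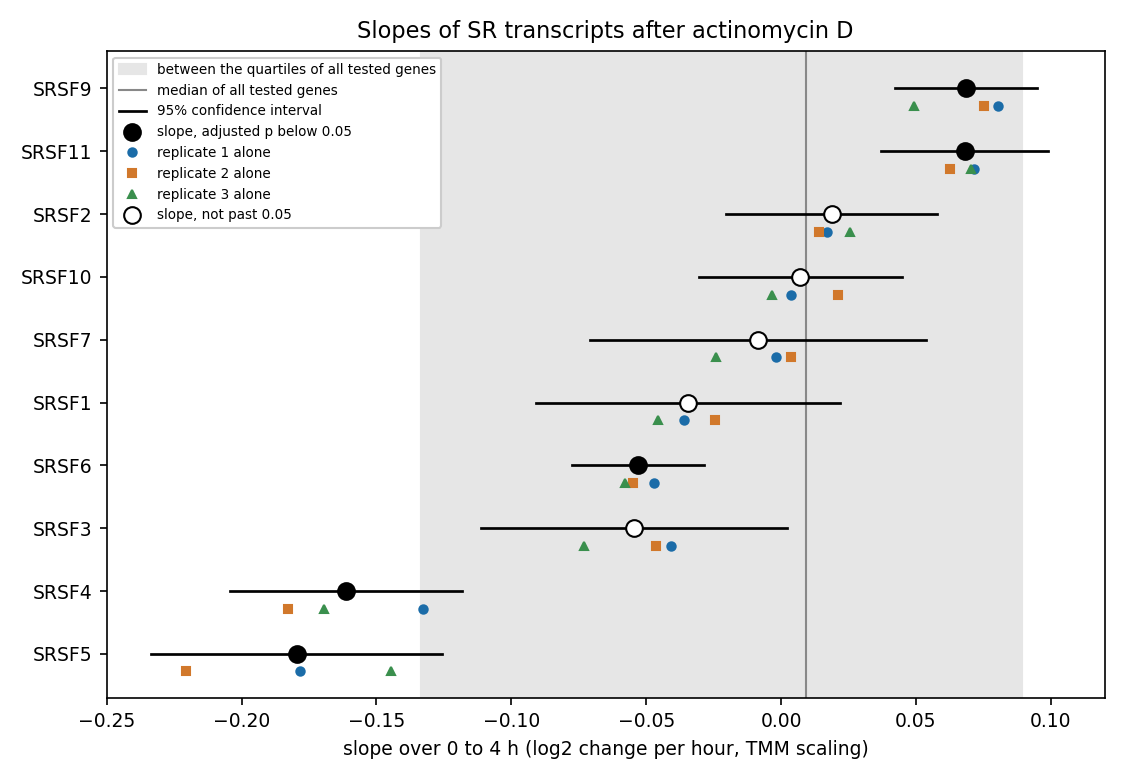
Slope over 0 to 4 h (x, log2 change per hour, TMM scaling) of each SR transcript (y, ordered by slope), with its 95% confidence interval, the slopes of single replicates beneath, and the range between the quartiles of all tested genes in grey. SRSF5 and SRSF4 lie below the lower quartile of all genes, at -0.18 and -0.16, and the other 8 lie within it.

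The single steps show when the members moved. From 0 h to 1 h none of the 10 was called by edgeR, DESeq2 or limma. Of all genes, edgeR called 2.24% lower and 0.349% higher in this step. No member had an unadjusted p below 0.05 with edgeR, DESeq2 or limma. The share of all genes with an unadjusted p below 0.05 was not counted, so the unadjusted counts have no background. With the replicate block SRSF3 was called lower in this step, by -0.19 on the log2 scale (edgeR adjusted p = 9.05e-05, against 10.5% of all genes). From 1 h to 2 h none was called by edgeR, DESeq2 or limma (12.5% of all genes were called lower and 3.76% higher by edgeR), while 2 members, SRSF4 and SRSF5, had an unadjusted p below 0.05 with edgeR and limma, and 1, SRSF5, with DESeq2. With the block SRSF5 (edgeR adjusted p = 4.43e-05) and SRSF4 (0.0171) were lower, against 20.7%.

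From 2 h to 4 h SRSF4 fell by 0.48 on the log2 scale (edgeR adjusted p = 7.68e-05) and SRSF5 fell by 0.38 (edgeR adjusted p = 0.0134), against 18.3% of all genes called lower. SRSF11 rose by 0.19 (edgeR adjusted p = 0.038, against 12% of all genes called higher), a call that ended with library totals and with GAPDH plus ACTB. The SRSF11 call in this step was also lost without any 1 of 6 libraries (0 h replicate 3, 1 h replicate 1, 2 h replicates 1 and 2, and 4 h replicates 2 and 3, the last of which left SRSF9 called higher instead), and the SRSF5 call without 2 h replicate 3 or 4 h replicate 2. With the replicate block 5 members were lower in this step (SRSF1, SRSF3, SRSF4, SRSF5 and SRSF6, against 25.3% of all genes) and 3 higher (SRSF2, SRSF9 and SRSF11, against 25.3%). No member departed from a straight line in the edgeR fit without the block (2.7% of all genes did). With the block SRSF2, SRSF3 and SRSF4 did (17.2%). Without it 1 member, SRSF4, had an unadjusted p below 0.05, a threshold whose share over all genes was not counted.

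Ratios between members of the same library do not depend on the scaling. For each of the 45 pairs the log2 ratio was related to time by a permutation test over the 12 libraries (two-sided, 100000 resamples, Benjamini-Hochberg over the 45 pairs). The slopes differed in 26 pairs, and in 36 when times were exchanged only within replicates. SRSF5 lost 0.25 log2 per hour against SRSF9, with -0.26, -0.30 and -0.19 in replicates 1, 2 and 3 (permutation adjusted p = 0.00018). SRSF4 lost 0.23 against SRSF9, with -0.21, -0.26 and -0.22 (permutation adjusted p = 0.00018). These ratios fell in every replicate. SRSF6 against SRSF9 changed by -0.12 ± 0.012 log2 per hour (SD over replicates, n = 3; permutation adjusted p = 0.00018), and SRSF3 against SRSF9 also by -0.12 (permutation adjusted p = 0.0101).

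Most neighbours in the order of slopes were not separated. None of the 9 neighbouring pairs passed the permutation test over all libraries. With times exchanged only within replicates, SRSF4 and SRSF3 (permutation adjusted p = 0.0144) and SRSF2 and SRSF11 (permutation adjusted p = 0.00208) did. SRSF5 and SRSF4 differed by 0.018 ± 0.038 log2 per hour (SD, n = 3), and SRSF11 and SRSF9 by 8.5e-05 ± 0.018. Among the 5 members not called by slope, 1 of 10 pairs differed, SRSF3 against SRSF10 (-0.060, permutation adjusted p = 0.0145). With times exchanged within replicates 5 of these 10 pairs differed, with SRSF1 against SRSF2 and SRSF10, and SRSF3 against SRSF2 and SRSF7, in addition.

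**Figure D3:**
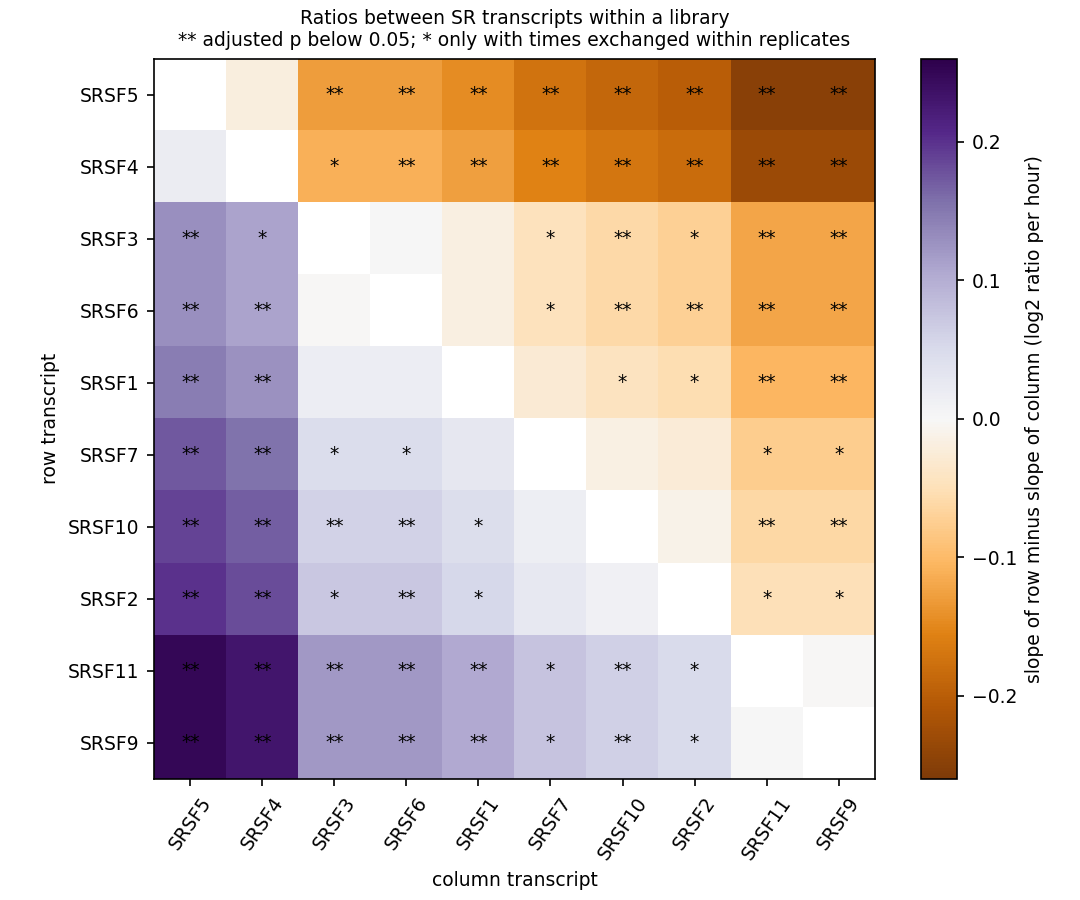
Difference of slope (colour, log2 ratio per hour, row minus column) for every pair of SR transcripts, ordered by slope on both axes. Differences reach 0.25 between SRSF5 and SRSF9. A double star on 26 of the 45 pairs marks a permutation adjusted p below 0.05, none of them between neighbours. A single star marks pairs past that threshold only with times exchanged within replicates. Among these are the neighbours SRSF4 and SRSF3, and SRSF2 and SRSF11.

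**Figure D4:**
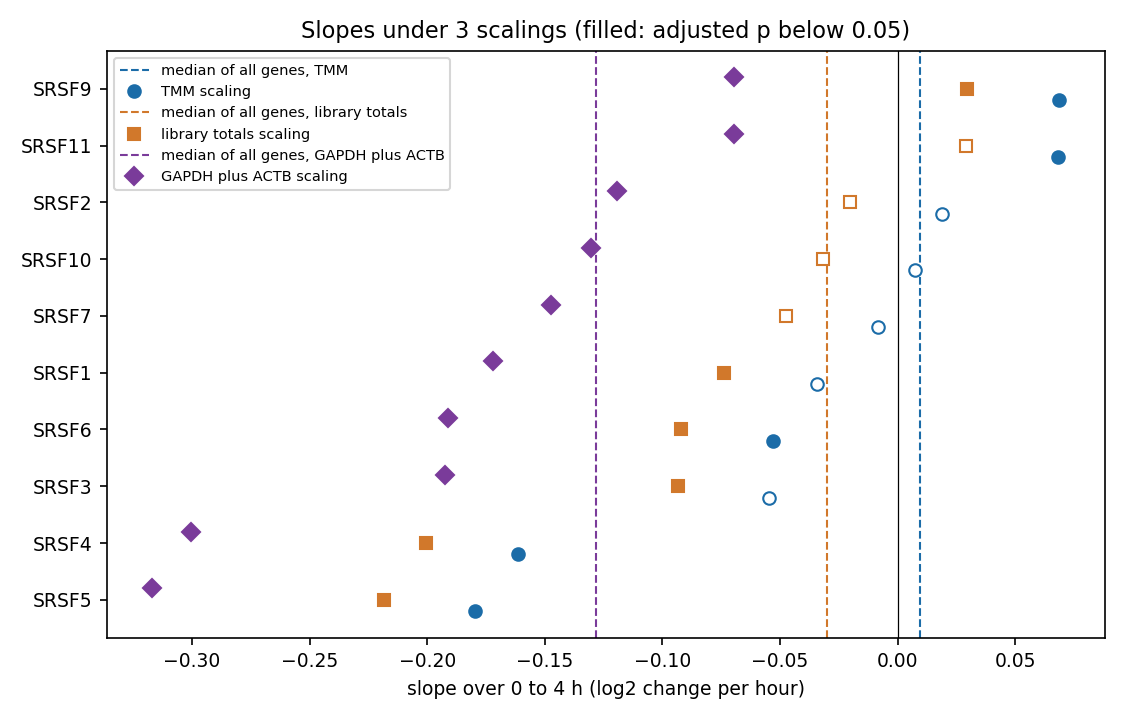
Slope (x, log2 change per hour) of each SR transcript (y) under TMM, library totals and GAPDH plus ACTB, with filled marks for an adjusted p below 0.05 and dashed lines at the median of all genes. The order of the members stays nearly the same while the zero point moves, so that SRSF9 is at 0.069, 0.029 and -0.070 under the 3 scalings.

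To compare levels between genes at 0 h, CPM was divided by the length of the canonical transcript, in kilobases. SRSF2 was highest, with 201 ± 12.3 CPM per kb (SD, n = 3), followed by SRSF9 (138 ± 3.61), SRSF1 (130 ± 16.2), SRSF3 (120 ± 17.4), SRSF5 (96.6 ± 3.99) and SRSF7 (94.1 ± 11.8). SRSF11 (60.0 ± 4.13), SRSF6 (59.2 ± 2.24), SRSF4 (49.2 ± 1.15) and SRSF10 (24.3 ± 1.70) were lower. The libraries of SRSF9 and SRSF1, of SRSF1 and SRSF3, of SRSF5 and SRSF7, and of SRSF11 and SRSF6 overlapped, and the other neighbours did not. This order depends on the canonical length, and which isoforms these cells hold is not known from the counts. By CPM alone SRSF1 was highest at 0 h, with 694 ± 86.7 CPM (SD, n = 3).

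Features of the canonical transcripts, which the choice of genes did not use, varied among the members and are set beside the 10823 tested genes with a protein-coding canonical transcript. The 3′ UTR ran from 347 bases in SRSF9 to 6795 in SRSF10, and was longer than the median of those genes (1416) in 6 of 10 members and shorter in 4 (SRSF2, SRSF4, SRSF5 and SRSF9). The pentamer ATTTA, the core of AU-rich elements, was counted on the transcript strand with overlaps allowed and was found 1 to 25 times per member (above the median of 2 in 6 members and below it in 3), while 75.0% of those genes hold at least 1. The coding sequence was shorter than the median of 1455 bases in 8 members, equal to it in SRSF11 and longer in SRSF4. Exons were fewer than the median of 9 in 9 members, with SRSF11 the exception. Across the 10 members Spearman's rho with the slope was -0.29 for the length of the coding sequence, -0.25 for the number of exons, 0.17 for ATTTA, -0.079 for transcript length, 0.055 for GC content and -0.018 for the length of the 3′ UTR, a description over 10 genes measured in the same libraries.

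For each member the gene outside the family with the most similar levels was found among 8814 genes by Pearson's r of log2(CPM + 1) over the 12 libraries. MAGI1 was most like SRSF4 (r = 0.992), ZC3H11A most like SRSF5 (0.974), SNHG7 most like SRSF6 (0.978), IQCB1 most like SRSF9 (0.977) and MTFR1L most like SRSF11 (0.959). For the others these were EPHA3 for SRSF1 (0.976), MGAT4C for SRSF3 (0.958), TMEM106B for SRSF10 (0.949), MTRF1L for SRSF2 (0.901) and FAM114A1 for SRSF7 (0.886). The measure compares shape and not size, since SNHG7 had a slope of -0.36 and SRSF6 one of -0.053. It also takes in differences between replicates, so a high r need not mean a like course over time. EPHA3 and FAM114A1 had slopes of -0.021 and -0.032 (edgeR adjusted p = 0.47 and 0.62).

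The genes that act with SR proteins were taken from lists by role, to be read beside the 32.1% of all genes called lower, the 30.7% called higher and the median slope of 0.0093. Of the 8 tested SR protein kinases 5 fell and 2 rose (median slope -0.13). DYRK1A fell by 0.52 log2 per hour (edgeR adjusted p = 8.14e-07), from 76.2 ± 1.72 to 19.8 ± 2.47 CPM (SD, n = 3), and CLK3, which phosphorylates SR proteins in the nucleus, fell by 0.23 (edgeR adjusted p = 1.55e-05). CLK2 rose by 0.093 and SRPK1, which drives SR proteins into the nucleus, by 0.036, and both had negative slopes when scaled to GAPDH plus ACTB. SRPK3 had no count.

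Among 20 SR-like splicing activators 6 fell, 3 rose and 11 did not pass the test (median slope -0.017), and with the replicate block 7 fell and 5 rose. The members gained with the block were TRA2B (-0.033, edgeR adjusted p = 0.0106), TRA2A (0.049, edgeR adjusted p = 0.00146) and LUC7L2 (0.12, edgeR adjusted p = 0.0406), named here because their call changed, and the slopes of TRA2A and LUC7L2 were negative when scaled to GAPDH plus ACTB. SCAF8 and SCAF4, which restrain early polyadenylation, fell by 0.53 and 0.51 log2 per hour, while RSRP1 rose by 0.23 and SRRM2 by 0.11 (-0.027 when scaled to GAPDH plus ACTB). Of 7 partners in splice site choice 1 fell and 3 rose (median 0.022). U2AF1, the subunit that reads the AG of the 3′ splice site, had a slope of -0.055, while U2AF2, which binds the pyrimidine tract, had 0.098 and SNRPC of the U1 snRNP 0.12 (-0.040 and -0.020 when scaled to GAPDH plus ACTB).

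Of 8 import and export partners 2 fell and 2 rose (median 0.020), and 3 rose with the replicate block (EIF4A3 in addition, 0.030, edgeR adjusted p = 0.0168, negative when scaled to GAPDH plus ACTB). NXT1, the cofactor of the export receptor NXF1, fell by 0.63 log2 per hour and NXF1 itself by 0.046, while ALYREF had a slope of 0.10 and TNPO3, the import receptor of SR proteins, 0.040, both negative when scaled to GAPDH plus ACTB. Of 10 NMD factors 2 fell and 5 rose (median 0.039). SMG8 fell by 0.59 and UPF2 by 0.060, and UPF3A rose by 0.17 and SMG5 by 0.15, slopes of 0.035 and 0.0088 when scaled to GAPDH plus ACTB.

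Of 12 hnRNP genes, whose proteins often oppose SR proteins, 10 rose, 1 fell and 1 did not pass the test (median 0.077 on the TMM scale and -0.061 when scaled to GAPDH plus ACTB, under which 8 fell and 0 rose, beside 64.2% and 0.931% of all genes). HNRNPF fell by 0.13 log2 per hour, and HNRNPH1 and HNRNPA3 had slopes of 0.10 and 0.090. The remaining SR genes, SRSF8 and SRSF12, had slopes of -0.048 and -0.089 (edgeR adjusted p = 0.0955 and 0.0938), and SRSF8 passed the threshold with the replicate block (edgeR adjusted p = 0.0398).

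The libraries held 9147018 to 11194705 counts, and the 10 transcripts 634 to 8199 counts per library. Short-lived transcripts followed the time labels, since MYC, JUN and IER2 fell by 1.12, 0.89 and 0.84 log2 per hour. Of the Ewing sarcoma markers NKX2-2 (7.08 CPM at 0 h), NR0B1 (38.1 CPM), STEAP1 (61.0 CPM) and PRKCB (124 CPM) were present, with slopes of -0.65, -0.53, -0.0035 and 0.090 (the last with an edgeR adjusted p of 0.0738, and 1.39e-06 with the replicate block), while CD99 was listed at 0 counts in all 12 libraries. PTPRC, CD3E, EPCAM, PECAM1 and VWF, markers of other cell types, had 0 to 6 counts per library. Pseudogenes named after SRSF3 (5), SRSF6 (2) and SRSF1, SRSF2, SRSF9 and SRSF10 (1 each) are annotated, and how reads shared with them were counted is not given in the sources used here.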

How the data were processed

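Poly(A) RNA of 12 libraries (4 time points, 3 replicates each) was prepared with a stranded kit. The authors deposited raw counts, whole numbers per gene symbol. The submitters' processing notes name FastQC, STAR and hg19 without versions; the counting tool and its use of strand are not given in the sources used here, and the general methods of the study describe Salmon on GRCh38 without naming these libraries. Gene positions, transcripts and sequences are those of GENCODE version 44 on GRCh38, used to describe the genes and not the counts, and no coordinates were converted. Columns were matched to samples by title, and 0 were left unmatched.

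Counts were fitted with edgeR 4.0.16 in R 4.3.3 (TMM, glmQLFit, glmQLFTest, a mean of at least 10 counts, 12032 genes), with time as a number or as 4 groups, and adjusted by Benjamini-Hochberg over all genes. The common biological coefficient of variation was 0.0905. The half-life is -1 divided by a called negative slope. It counts loss beyond that of the typical message on the TMM scale, and its interval does not cover the choice of scaling. Pair tests used numpy 2.4.6 and log2 ratios of CPM. Replicates differed beyond sampling noise (chi-square per degree of freedom 3.20 to 8.65 over 12 pairs). P-values measure the spread between replicates, which the labels call biological. Libraries with the same replicate number deviated together (correlation 0.347 to 0.657 in 18 pairs, -0.439 to 0.095 in 36 pairs of different numbers), so the numbers pair the samples, and the fit with the replicate block is given where it changed a call, except for 1 gene of the lists that is not reported here. Scripts were tested on simulated data in which 11789 of 11988 genes had a true slope of 0. The slope test recovered 4 of 66 genes with a true slope of 0.05 in size, 32 of 67 with 0.1 and 51 of 66 with 0.2. Of its calls 6.45% were false. Far fewer genes had a slope in the simulation than were called in the data, so these shares need not hold for the members. A member that was not called may still have a small slope.

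The members and lists were chosen with earlier results of these data known. Named genes are all members, the 2 lowest and 2 highest slopes past the threshold in each list, all time checks and markers, and the most similar gene per member. Alternatives were library totals, DESeq2 1.42.0 size factors and Wald test, GAPDH plus ACTB, limma 3.58.1 on log2(CPM + 1), other filters (none, or a mean of at least 50 counts), the replicate block, fewer time points and leaving out libraries.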

Additional observations from a re-analysis of the deposited data

How the results depend on the processing

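All slopes are relative to the other poly(A) RNA, no spike-in value was used here to set an absolute scale, and 4 h is short beside half-lives above it. Members called lower and higher by slope were 3 and 2, and became 5 and 1 with library totals and 10 and 0 with GAPDH plus ACTB. They became 1 and 1 (SRSF5 and SRSF9) with 0, 1 and 2 h only, beside 2215 and 1447 of 12060 genes. From 0 h to 4 h, 3 lower and 2 higher became 5 and 0 with library totals and 10 and 0 with GAPDH plus ACTB. Without the count filter SRSF3 was also called lower there (edgeR adjusted p = 0.0239), beside 3957 of 18937 genes. From 1 h to 2 h, 0 lower became 1 with library totals and 2 with GAPDH plus ACTB. From 2 h to 4 h, 2 lower became 3 with library totals and 5 with GAPDH plus ACTB, and 1 higher became 0 with library totals, GAPDH plus ACTB or no count filter. Without the filter 1083 of 18937 genes were called higher in that step. Scaled to GAPDH plus ACTB, the slopes of SRSF2, SRSF9, SRSF10 and SRSF11 reversed to -0.12, -0.070, -0.13 and -0.069, and their changes from 0 h to 4 h to -0.47, -0.28, -0.52 and -0.27; the scaling shifts all genes by its construction.

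With the replicate block, 5 members were lower by slope and 5 from 0 h to 4 h, 1 from 0 h to 1 h, 2 from 1 h to 2 h and 5 from 2 h to 4 h, where 3 were higher, and 3 departed from a straight line. It ended no call of the fit without it. Leaving out replicates or single libraries gave 3 to 4 lower and 2 higher members, by slope and from 0 h to 4 h. It gave 0 to 1 lower from 1 h to 2 h, and 1 to 2 lower and 0 to 1 higher from 2 h to 4 h. Over all genes (11991 to 12057 tested) these fits called 3468 to 3881 lower and 2968 to 3689 higher by slope. From 0 h to 4 h they called 3272 to 3834 lower and 2521 to 3467 higher. From 1 h to 2 h they called 614 to 1583 lower, and from 2 h to 4 h 1334 to 2259 lower and 501 to 1443 higher. Pairs were tested again only without whole replicates, which gave 19 to 28 differing pairs. The member gained was SRSF3 by slope and from 0 h to 4 h, and SRSF5 from 1 h to 2 h. From 2 h to 4 h SRSF9 took the place of SRSF11 without 4 h replicate 3. DESeq2 and limma called the same 5 members by slope.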
